A study of Mus musculus with 6 samples.

Results

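Expression of the 4 ID factors (Id1, Id2, Id3 and Id4), of 5 genes of bone morphogenetic protein (BMP) signaling (Bmp4, Bmp6, Bmpr2, Smad6 and Smad7) and of Tmem100 was read from lung RNA of mice with mutant EGFR-driven lung cancer that were fed a high-fat diet (HFD) or a regular diet (RD). These 10 genes, of 18193 with a probe set of their own, are represented by 18 of the 45037 probe sets that were tested. A probe set, a group of short probes against 1 stretch of a transcript, was taken when the platform annotation gives it exactly 1 of the 10 genes. For each gene the brightest probe set by its mean over the 6 arrays was chosen as the lead, so the brightness of the leads is not a result. The genes themselves were selected on this contrast, because lower values of Id1, Id2 and Tmem100 in the HFD group were known beforehand. The differences of these 3 genes are therefore given as a description without a p-value.

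Both groups carried the transgenes CC10-rtTA and tet-O-EGFR-L858R on a C57BL/6 background, and all mice received doxycycline. The CC10 promoter drives the transactivator in the respiratory epithelium, so that doxycycline turns on human EGFR with the L858R substitution in those cells, whereas the RNA came from the lung as a whole. LC-HFD (lung cancer, high-fat diet, labelled HFD+Dox) and LC-RD (lung cancer, regular diet, labelled RD+Dox) each comprised 3 male mice with 1 Affymetrix GeneChip mouse genome array per mouse, and the mice are numbered 1 to 3 as labelled. By the published schedule, feeding began at 6 weeks of age and lasted 2 weeks before doxycycline was mixed into the same diet for 8 weeks. The labels give the first diet until 8 weeks and doxycycline for 7 weeks, with 625 ppm in the chow and 2 mg/ml in the water. They also state that fat supplied 60% of the energy of the HFD. Mice without the EGFR transgene were not analysed here, so the comparison asks how the 2 diets differed within induced lungs.

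BMP ligands bind paired type I and type II serine/threonine kinase receptors, which phosphorylate receptor-regulated SMAD proteins that enter the nucleus with SMAD4. The Id genes are the best known direct targets of this pathway. ID proteins have a helix-loop-helix domain but no DNA-binding region, and they hold E proteins and related transcription factors away from DNA. In the lung the pathway is known above all from the endothelium, where inherited loss of Bmpr2 predisposes to pulmonary arterial hypertension and where Tmem100, a small transmembrane protein, is induced by BMP signaling through the receptor Acvrl1.

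RefSeq promoter windows (build GRCm38.p6) were searched for 7 of the 10 genes: Bmp4, Bmp6, Bmpr2, Id2, Id3, Id4 and Smad6. No window was searched for Id1, Tmem100 or the other inhibitory SMAD, Smad7, so nothing is said of motifs in these genes. Each window of 300 bases runs from 250 bases before to 50 bases after a start of the gene as the promoter table places it, which for Smad6 is not the outermost end of the annotated gene. Both motifs searched are palindromes and so read alike on either strand. The first, GGCGCC, is a GC-rich element bound by BMP-regulated SMADs, and the second, GTCTAGAC, is the palindrome known as the SMAD-binding element. GGCGCC was present in the windows of Id2, Bmpr2 and Id4 and in 11.9% of all 32851 windows of that length. GTCTAGAC was present in the window of Smad6 and in 0.213% of all windows. The windows of Id2, Id3 and Smad6 are printed to show an ID factor with the first motif, an ID factor with neither, and an inhibitory SMAD with the second. They are written 5′ to 3′ on the strand of the gene, with motif matches in capitals. Id2 lies on the minus strand (chr12:25096043-25096342), Id3 on the plus strand (chr4:136143572-136143871) and Smad6 on the minus strand (chr9:64022010-64022309).
Id2: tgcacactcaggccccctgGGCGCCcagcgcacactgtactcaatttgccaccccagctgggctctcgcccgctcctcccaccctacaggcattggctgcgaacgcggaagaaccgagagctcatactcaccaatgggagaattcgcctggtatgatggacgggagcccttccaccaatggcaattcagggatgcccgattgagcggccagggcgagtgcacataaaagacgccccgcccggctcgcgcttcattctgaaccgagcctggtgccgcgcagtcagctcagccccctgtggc
Id3: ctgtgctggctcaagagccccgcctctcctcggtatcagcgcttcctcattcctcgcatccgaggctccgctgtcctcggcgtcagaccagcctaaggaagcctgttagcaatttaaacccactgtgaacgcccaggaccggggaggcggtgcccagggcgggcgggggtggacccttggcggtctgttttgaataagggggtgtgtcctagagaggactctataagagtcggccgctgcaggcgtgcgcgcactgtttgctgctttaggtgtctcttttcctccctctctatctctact
Smad6: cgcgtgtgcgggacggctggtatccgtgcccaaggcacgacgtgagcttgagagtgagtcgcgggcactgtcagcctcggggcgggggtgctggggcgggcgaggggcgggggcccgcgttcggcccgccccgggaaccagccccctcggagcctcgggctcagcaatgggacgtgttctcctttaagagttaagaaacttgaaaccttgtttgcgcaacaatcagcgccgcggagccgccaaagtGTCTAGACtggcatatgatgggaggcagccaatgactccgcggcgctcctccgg
The match in Id2 began at position -231 from the start, that in Smad6 at position -4, and those in Bmpr2 and Id4 at -105 and -148. These matches describe the letters of the window and show neither binding nor regulation in these lungs.

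All values are deposited log2 values, and every difference is LC-HFD minus LC-RD on the log2 scale, with the standard error (SE) of the limma fit. Errors of group means are s.d. between mice (n = 3 per group). A probe set passed the test when its p, adjusted by the Benjamini-Hochberg method over all 45037 probe sets, was under 0.05. The arrays had medians of 4.79 to 4.84, with 34.9% to 36.2% of their probe sets at 6 or above. Sets of control probes also separated the 2 groups of arrays. Hybridization controls averaged 11.5 on the LC-HFD arrays and 10.0 on the LC-RD arrays (difference 1.48), poly-A controls 6.49 to 6.57 and 6.89 to 6.99 (difference -0.42), and the probe sets for 18S rRNA 7.57 to 7.69 and 12.5 (difference -4.92). The 3′ minus 5′ signal of beta-actin and Gapdh, a sign of RNA integrity, was 0.346 to 0.440 in LC-HFD and 0.457 to 0.537 in LC-RD. Because these ranges do not overlap, adjustment for this signal also takes up part of the diet contrast and widens its error. A call lost after that adjustment therefore cannot tell RNA integrity from diet. Diet and the handling of the arrays cannot be told apart, and the part of the controls in the results was not tested.

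Across the 18 member probe sets, low values in LC-HFD prevailed, most of all on 1 probe set each of Tmem100, Id2 and Id1, whereas Bmp4 hardly differed and the lead of Smad7 lay on the higher side. By adjusted p, 10 of the 18 probe sets were lower, 0 higher and 8 not passed, while 13.6% of all probe sets were lower and 11.3% higher. Without Id1, Id2 and Tmem100, 4 of 12 were lower and 0 were higher. Differences over 2-fold were found for 3 lower member probe sets, all of the genes known beforehand, beside 1.06% of all probe sets. Values of the 3 LC-HFD mice lay wholly below those of the 3 LC-RD mice on 12 member probe sets and wholly above on 1, and these arrangements were seen in 21.8% and 22.0% of all probe sets. Among the 10 leads, 5 were lower, 0 higher and 5 not passed, beside 16.2% lower and 11.1% higher among the leads of all genes. The median difference was -0.30 over the 10 leads, -0.21 over the 7 leads without Id1, Id2 and Tmem100, and 0.0188 over the leads of all genes. Because the genes were picked for low values, nothing is read from these counts. In 3 leave-one-out fits, without LC-HFD 3, LC-RD 1 or LC-RD 2, the lower probe sets numbered 6 and the lower leads 3, and after adjustment for the 3′ minus 5′ signal they numbered 5 and 2.

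**Figure D1:**
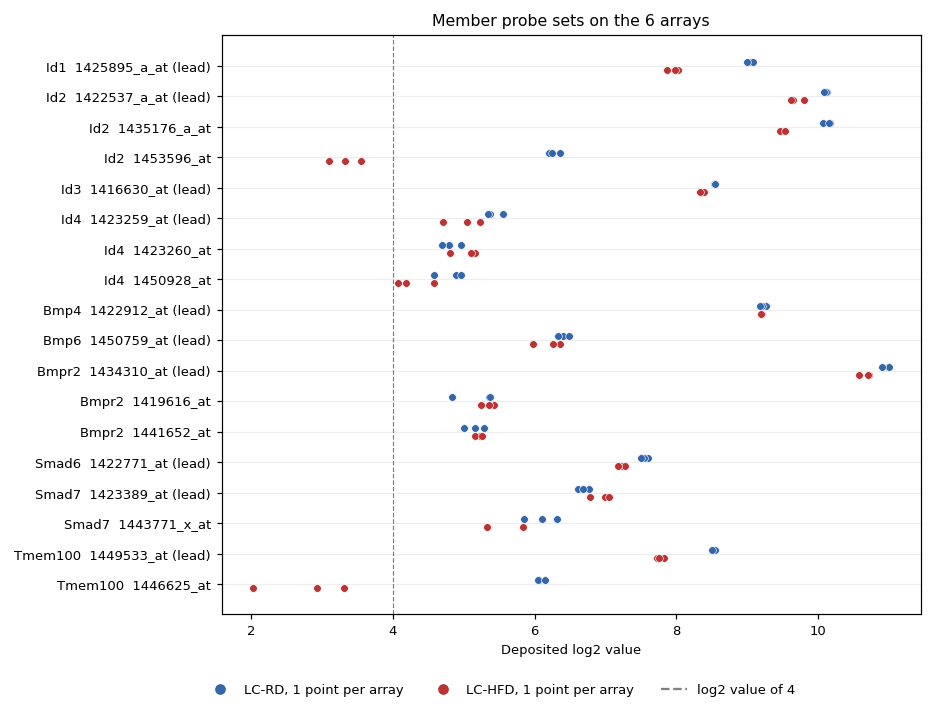
Deposited log2 value (horizontal axis) of each of the 18 member probe sets, with 1 point per mouse, blue for LC-RD and red for LC-HFD, and a dashed line at a log2 value of 4. The groups lie apart on Id1, on all 3 probe sets of Id2 and on both of Tmem100, and coincide for Bmp4; only Id2 1453596_at and Tmem100 1446625_at have points to the left of the line.

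A mean log2 value under 4 over the 6 arrays marked a probe set as near background, and 0 of the 18 member probe sets had one. The nearest were Tmem100 1446625_at with 4.42, Id4 1450928_at with 4.54 and Id2 1453596_at with 4.80. In LC-HFD alone the means of Tmem100 1446625_at (2.76) and Id2 1453596_at (3.33) lay under 4, so that the size of these differences depends on values near background.

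Id1, the ID factor most often used as a readout of BMP signaling, is read by 1 probe set, 1425895_a_at. Its values were 8.02, 7.99 and 7.87 in the LC-HFD mice and 9.04, 9.08 and 9.00 in the LC-RD mice. All LC-HFD mice were lower than all LC-RD mice, with means of 7.96 ± 0.0785 and 9.04 ± 0.0394. The difference was -1.08 (SE 0.0756), or 2.12-fold lower, the 350th lowest of the 45037 differences. In RNA from whole lung, fewer cells of a type that contains Id1 and less Id1 RNA per cell cannot be told apart, and this holds for every gene that follows.

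Id2, which is also widely expressed in lymphoid and epithelial cells, was lower on all of its 3 probe sets, but by very different amounts. On the lead, 1422537_a_at, the LC-HFD mice had 9.65, 9.80 and 9.62 and the LC-RD mice 10.13, 10.11 and 10.08, a difference of -0.42 (SE 0.0779). On 1435176_a_at the values were 9.50, 9.45 and 9.53 against 10.07, 10.16 and 10.15, a difference of -0.63 (SE 0.0711). The groups did not overlap on either of these bright probe sets. On 1453596_at the LC-HFD values were 3.10, 3.55 and 3.32 and the LC-RD values 6.35, 6.21 and 6.25. Its difference of -2.94 (SE 0.121) was the 8th lowest of all and exceeded that of the lead by 2.53 log2 units. The 3 probe sets thus gave 1 direction for Id2 and no single size. Whether 1453596_at reads a transcript form of its own was not tested.

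Id3, which is often regulated together with Id1, showed a small difference. Its probe set 1416630_at read 8.37, 8.38 and 8.33 in LC-HFD and 8.53, 8.54 and 8.55 in LC-RD. The groups did not overlap and the mice within a group were close together, yet the difference of -0.18 (SE 0.0665) did not pass by limma (adjusted p = 0.0912), which draws each variance toward that of all probe sets. It passed under 4 of the 16 alternatives, with adjusted p between 0.00973 and 0.322 over all of them.

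Id4, best known from neural and mammary progenitors, had values near the lower end of the scale and probe sets that disagreed. The lead, 1423259_at, read 4.71, 5.23 and 5.05 in LC-HFD and 5.37, 5.55 and 5.34 in LC-RD, a difference of -0.42 (SE 0.140) that did not pass by limma (adjusted p = 0.0659) but did under 4 of the 15 alternatives that kept it, among them without LC-HFD 2 (-0.54, adjusted p = 0.033). 1450928_at read 4.57, 4.18 and 4.07 against 4.90, 4.97 and 4.58, and it fell by 0.54 (SE 0.158, limma adjusted p = 0.0456). The highest LC-HFD and the lowest LC-RD mouse nearly met on that probe set, and the call was lost without LC-HFD 2 (adjusted p = 0.11), LC-HFD 3 (0.114), LC-RD 1 (0.136) or LC-RD 2 (0.147). The third, 1423260_at, overlapped between the groups and lay the other way, at 4.80, 5.15 and 5.11 against 4.79, 4.96 and 4.69 (difference 0.21, SE 0.120, limma adjusted p = 0.238). No direction for Id4 holds across its 3 probe sets.

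**Figure D2:**
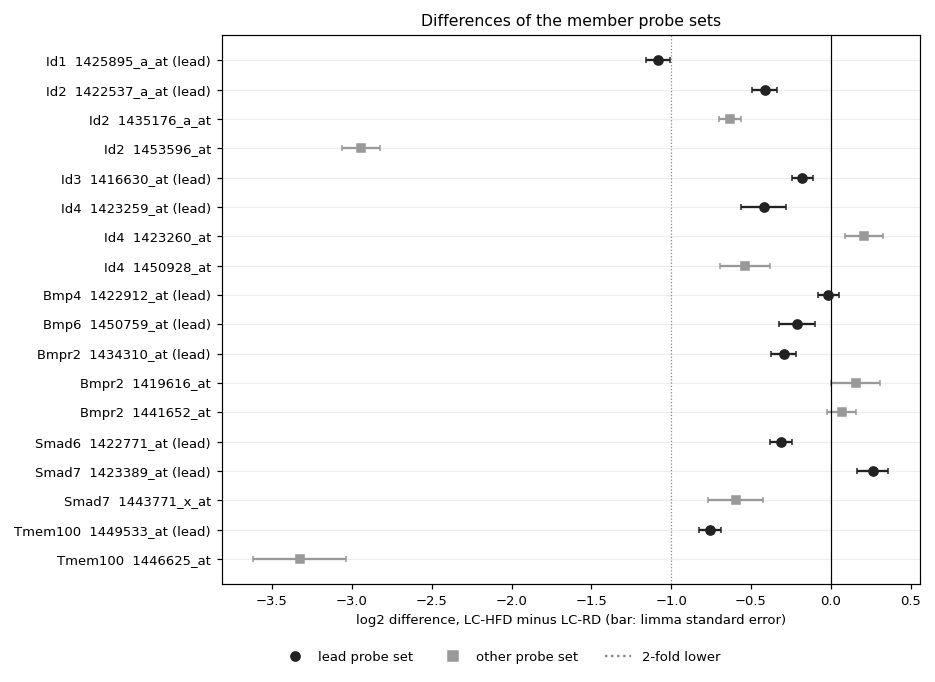
Log2 difference, LC-HFD minus LC-RD (horizontal axis), of each member probe set with its limma standard error as a bar; circles are lead probe sets, squares the others, and the dotted line marks 2-fold lower. Id2 1453596_at (-2.94) and Tmem100 1446625_at (-3.33) stand far to the left of the other probe sets of their genes, and probe sets of Id4, Bmpr2 and Smad7 lie on both sides of 0.

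Of the ligands, Bmp4, which is expressed in the mesenchyme and epithelium of the lung, hardly differed. Its probe set 1422912_at read 9.21, 9.19 and 9.20 in LC-HFD and 9.26, 9.20 and 9.18 in LC-RD. The groups overlapped, with a difference of -0.015 and a 95% confidence interval from -0.17 to 0.14 (limma adjusted p = 0.888). With 3 mice per group, a true difference anywhere within that interval remains compatible with these values. The interval is not a detection limit, since Id3 did not pass with a difference of -0.18. Bmp6, a ligand also known for its control of hepcidin and iron, read 5.97, 6.36 and 6.26 in LC-HFD and 6.40, 6.49 and 6.33 in LC-RD on 1450759_at. The groups overlapped through LC-HFD 2, and the difference of -0.21 (95% confidence interval -0.47 to 0.05) did not pass by limma (adjusted p = 0.208).

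The type II receptor Bmpr2 fell slightly on its brightest probe set and did not pass on the others. On the lead, 1434310_at, LC-HFD mice had 10.71, 10.70 and 10.57 and LC-RD mice 10.98, 11.00 and 10.90, without overlap. The means were 10.7 ± 0.0767 and 11.0 ± 0.0529, a difference of -0.30 (SE 0.0768, limma adjusted p = 0.0303). This call was lost without LC-HFD 3 (adjusted p = 0.0735), LC-RD 1 (0.111), LC-RD 2 (0.113) or LC-RD 3 (0.0516) and after adjustment for the 3′ minus 5′ signal (0.137). It was also lost with replicate number as a block (limma adjusted p = 0.0667) and with the median over the probe sets of the gene (0.703). The groups overlapped on 1419616_at, which read 5.43, 5.24 and 5.36 in LC-HFD and 5.36, 5.37 and 4.84 in LC-RD (difference 0.15, limma adjusted p = 0.48). They also overlapped on 1441652_at, with 5.23, 5.16 and 5.26 against 5.00, 5.29 and 5.16 (difference 0.07, limma adjusted p = 0.615).

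The inhibitory SMADs are induced by the pathway and restrain it. Smad6, which acts mainly on BMP receptors, read 7.24, 7.28 and 7.18 in LC-HFD and 7.59, 7.54 and 7.50 in LC-RD on 1422771_at. It fell without overlap by 0.31 (SE 0.0715, limma adjusted p = 0.0196), and the call was lost without LC-HFD 3 (adjusted p = 0.0509), LC-RD 1 (0.0891) or LC-RD 2 (0.0735) and after adjustment for the 3′ minus 5′ signal (0.0965). The call of Smad6 was also lost with replicate number as a block (limma adjusted p = 0.0602). Smad7, which acts on both BMP and TGF-β receptors, is read by a pair of probe sets that disagreed. The lead, 1423389_at, read 7.00, 6.78 and 7.05 in LC-HFD and 6.60, 6.76 and 6.68 in LC-RD. All LC-HFD mice were above all LC-RD mice, but the difference of 0.26 (SE 0.0957) did not pass by limma (adjusted p = 0.0871) except when LC-HFD 2 was left out (0.34, adjusted p = 0.0365) or under 4 other alternatives. On 1443771_x_at, the suffix of which marks probes that can also match other transcripts, values were 5.83, 5.33 and 5.32 against 5.85, 6.31 and 6.10. This probe set fell by 0.59 (SE 0.172, limma adjusted p = 0.0434), and the adjusted p was 0.052 to 0.139 without LC-HFD 2, LC-HFD 3 or any 1 of the LC-RD mice. No direction is given for Smad7.

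Tmem100 was lower on both of its probe sets. The lead, 1449533_at, read 7.83, 7.73 and 7.76 in LC-HFD and 8.54, 8.54 and 8.51 in LC-RD. The mice of each group lay close together and far from the other group, with means of 7.77 ± 0.0517 and 8.53 ± 0.0204 and a difference of -0.76 (SE 0.0697), or 1.69-fold. On 1446625_at the LC-HFD mice had 2.93, 2.03 and 3.31 and the LC-RD mice 6.07, 6.04 and 6.14. This difference of -3.33 (SE 0.289) was the 4th lowest of the 45037 and exceeded that of the lead by 2.57 log2 units, with a wider spread among the LC-HFD mice (s.d. 0.653) than among the LC-RD mice (s.d. 0.0535). The shape is that of Id2, with 1 probe set that was near background in LC-HFD and moderate in LC-RD beside brighter ones with a smaller difference in the same direction.

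**Figure D3:**
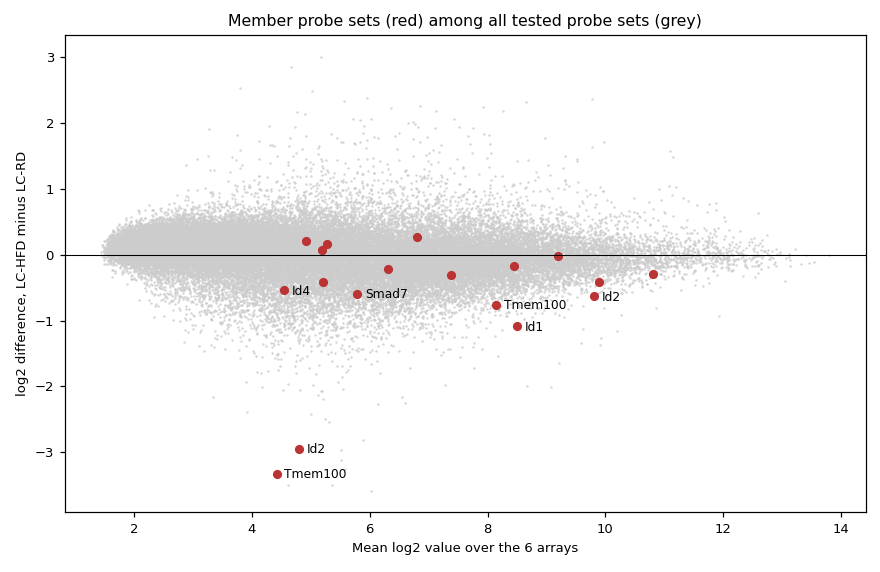
Mean log2 value over the 6 arrays (horizontal axis) against the log2 difference, LC-HFD minus LC-RD (vertical axis), for all 45037 tested probe sets in grey and the 18 member probe sets in red, with gene names at members below -0.5. Id2 1453596_at and Tmem100 1446625_at lie at the lower edge of the cloud, and Id1 and the lead of Tmem100 lie at its lower side at higher values.

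The genes nearest to Id1 and to Tmem100 in pattern were sought among the leads of 9075 genes whose mean was 6 or above, as the smallest root mean square distance over the 6 arrays after each probe set was centered on its own mean. For Id1 these were Cenpf, a kinetochore protein of dividing cells, at a distance of 0.0349 (difference -1.06), Sc5d, an enzyme of cholesterol synthesis, at 0.0396 (-1.01) and the predicted gene Gm19439 at 0.0414 (-1.07). For Tmem100 they were Hmcn1, an extracellular matrix protein, at 0.0236 (-0.73), Dnajc24, a factor of diphthamide synthesis, at 0.0246 (-0.75) and the kinase Plk2 at 0.0248 (-0.74). With 2 groups of 3 arrays such likeness rests almost wholly on a difference of the same size, and no member was among the genes compared.

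Of 54 other genes of the pathway, listed by their known roles, 50 had a probe set of their own. On the lead probe sets 9 were lower, 4 higher and 37 not passed, beside 16.2% and 11.1% of the leads of all genes, and their median difference was 0.0286. A mean under 4 was found for 12 of the 50. The other 4 were not analysed here. Of the 13 genes that passed, 7 (Bmp5, Bmpr1a, Eng, Smurf1, Bambi, Skil and Bmper) passed whichever single array was left out. After adjustment for the 3′ minus 5′ signal Bmp5 alone of the 13 passed (adjusted p = 0.037), and the adjusted p of the other 6 of these 7 lay between 0.0761 and 0.178. Without LC-RD 1 or LC-RD 2 the counts were 5 lower and 2 higher.

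Among 9 other BMP ligands 2 were lower, 1 higher and 6 not passed. Bmp5, which is expressed in the lung mesenchyme, read 7.99, 7.96 and 7.95 in LC-HFD and 8.56, 8.55 and 8.58 in LC-RD. It fell by 0.60 (SE 0.0665, limma adjusted p = 0.00152), and its other probe sets fell by 0.64 and 0.29 (limma adjusted p = 0.0122 and 0.0363). Bmp2 fell by 0.47 (limma adjusted p = 0.0249), a call lost without LC-HFD 2, LC-RD 1 or LC-RD 2. Bmp15, a ligand of the oocyte, rose by 0.47 (limma adjusted p = 0.0389) but had a mean of 3.12, near background, and the call was lost without LC-HFD 2, LC-HFD 3, LC-RD 1 or LC-RD 2. Bmp8a, with a mean of 3.25 also near background, differed by 0.51 and did not pass (limma adjusted p = 0.0966).

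Among 9 other receptors and co-receptors 2 were lower, 1 higher and 6 not passed. Bmpr1a, a type I receptor for Bmp2 and Bmp4, read 8.79, 8.77 and 8.67 in LC-HFD and 9.23, 9.21 and 9.32 in LC-RD and fell by 0.51 (SE 0.0753, limma adjusted p = 0.00418). A further pair of its probe sets fell, by 0.33 and 0.40, and the remaining 3 did not pass. Acvr1, another type I receptor, fell by 0.37 on its lead (limma adjusted p = 0.012) and rose by 0.40 on 1416787_at (limma adjusted p = 0.0158), so its direction depends on the probe set. Eng, the endothelial co-receptor that works with Acvrl1, read 7.96, 8.09 and 8.28 in LC-HFD and 7.66, 7.66 and 7.60 in LC-RD and rose by 0.47 (SE 0.0953, limma adjusted p = 0.0128). Its other probe set, 1432176_a_at, overlapped between the groups and lay the other way (difference -0.22, limma adjusted p = 0.325). Bmpr1b differed by -0.52 and did not pass (limma adjusted p = 0.153). The co-receptor Rgmb did not pass on its lead (0.22, limma adjusted p = 0.111) but rose by 1.29 on 1459366_at (limma adjusted p = 0.000413). Its remaining probe sets did not pass.

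Of the 9 SMADs and intracellular regulators 2 were lower, 1 higher and 6 not passed. Smurf1, a ubiquitin ligase that marks BMP-regulated SMADs for degradation, rose by 0.45 (limma adjusted p = 0.0116) and by 0.62 on its other probe set (limma adjusted p = 0.00867). Bambi, a pseudoreceptor that is itself a BMP target, fell by 0.40 (limma adjusted p = 0.0113), and Skil, a SMAD co-repressor, fell by 0.39 (limma adjusted p = 0.0067). The other probe set of Skil, near background, also fell by 0.39 (limma adjusted p = 0.0318). The related co-repressor Ski differed by 0.16 on its lead, which did not pass (limma adjusted p = 0.158), and rose by 0.52 on its other probe set (limma adjusted p = 0.00419).

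Of 13 extracellular antagonists 1 was lower, 1 was higher and 11 did not pass. Bmper, a secreted BMP-binding protein of endothelial cells, fell by 0.91 (SE 0.170, limma adjusted p = 0.00952) from low values of 4.67, 4.73 and 4.39 in LC-RD to 3.96, 3.34 and 3.77 in LC-HFD. Nbl1 rose by 0.39 (limma adjusted p = 0.0177), a call lost without any 1 of the LC-RD mice, whereas Fst (0.38, limma adjusted p = 0.0526) and Chrdl2 (0.36, limma adjusted p = 0.112) did not pass. Chrdl2 had a mean of 3.83, near background. Of 10 other BMP target genes 1, Bambi, was lower and 9 did not pass, among them Hey1 (-0.34, limma adjusted p = 0.0693), Msx1 (0.29, limma adjusted p = 0.0591) and Hey2 (-0.28, limma adjusted p = 0.125). The median difference of this list was -0.0038, and 6 of the 10 had a mean under 4, near background, Hey2 (2.34) among them. Of the 3 E proteins that ID factors bind, Tcf12 fell by 0.38 (limma adjusted p = 0.0358) and Tcf4 fell by 0.38 (limma adjusted p = 0.0232), while Tcf3 differed by 0.07 (limma adjusted p = 0.494). Tcf12 kept its call in 1 of 6 leave-one-out fits, that of Tcf4 was lost without LC-HFD 2, LC-RD 1 or LC-RD 2, and another probe set of Tcf4, 1416724_x_at, rose by 0.36 (limma adjusted p = 0.0249). A further probe set of Tcf12, 1421908_a_at, fell by 0.30 (limma adjusted p = 0.0242), and the remaining ones of Tcf12 did not pass.

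**Figure D4:**
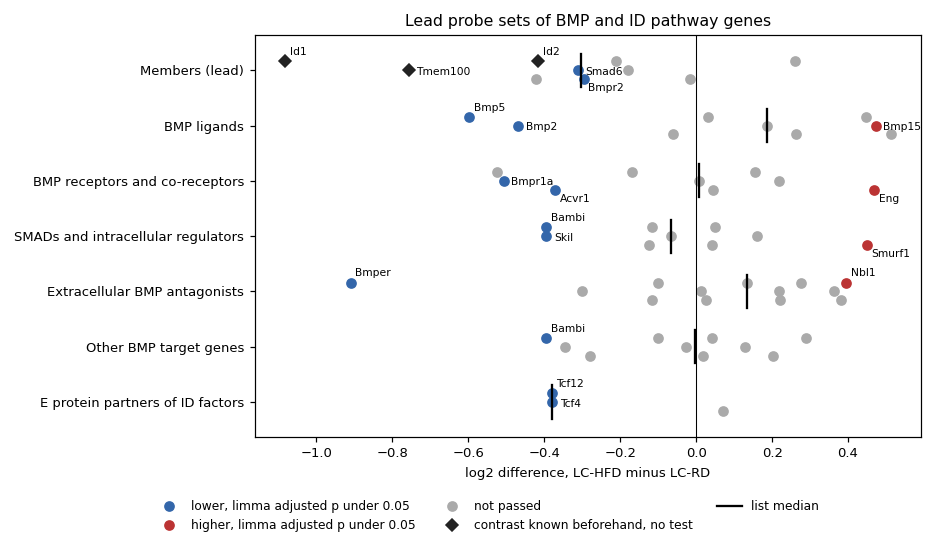
Log2 difference, LC-HFD minus LC-RD (horizontal axis), of the lead probe set of each gene in the member list and 6 pathway lists, with 1 point per gene and a bar at the median of the list. Blue and red points passed the limma test as lower and higher and are named, grey points did not pass, and the black diamonds are Id1, Id2 and Tmem100, which are shown without a test; the members lie mostly to the left of 0 and the pathway lists on both sides.

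Markers of lung cell types were read on the same arrays because whole tissue was used. Each marker was read on its lead probe set alone, and of the leads of all genes 16.2% were lower and 11.1% higher. Lung epithelium was read at high values. The lead of Sftpc, the surfactant gene of alveolar type II cells, was at 13.8 on every array. That is near the top of the scale, where a difference between the groups could not be seen on this probe set. The paper lists another, dim probe set of Sftpc as higher in LC-HFD. The epithelial list averaged 11.3 to 11.4 in LC-HFD and 11.2 to 11.3 in LC-RD, higher on every LC-HFD array. Nkx2-1 was higher (1.26), Scgb3a2 was lower (-0.53) and 7 of 9 did not pass. The median difference of the list was -0.07, with 5 of 9 below 0, so the higher average is not that of most markers. Of 10 endothelial markers 4 were higher (Pecam1 by 0.37, Tie1 by 0.92, Emcn by 0.70 and Eng by 0.47), 2 were lower (Tek by -0.38 and Cldn5 by -0.23) and 4 did not pass. The call of Cldn5 was lost whichever array was left out, that of Tek without LC-RD 1 and that of Pecam1 without LC-RD 1 or LC-RD 2, and after adjustment for the 3′ minus 5′ signal Tie1 and Emcn alone kept theirs. The list averaged 8.04 to 8.11 in LC-HFD and 7.83 to 7.90 in LC-RD, higher on every LC-HFD array. Of 7 fibroblast markers 4 were lower (Lum, Pdgfra, Dcn and Tcf21, limma adjusted p = 0.00841, 0.00357, 0.0447 and 0.0411). Only 1, Col1a1, was higher (limma adjusted p = 0.00605). The list averaged 8.42 to 8.52 in LC-HFD and 8.63 to 8.64 in LC-RD.

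Of 5 cardiac muscle markers 3 were lower (Myl7 by -1.36, Actc1 by -0.67 and Myh6 by -0.53, limma adjusted p = 0.000537, 0.00782 and 0.0375). The list averaged 4.29 to 4.37 in LC-HFD and 4.73 to 5.01 in LC-RD. Macrophage markers averaged 9.09 to 9.13 and 8.93 to 8.94, with 1 of 6, Marco, higher. The median difference of the macrophage list was 0.05, with 3 of 6 below 0. Smooth muscle and pericyte markers had 1 of 7 higher (Cspg4), T and NK cell markers 0 of 6 in either direction, and B cell markers 1 of 3 lower (Ms4a1) and 1 of 3 higher (Cd79a). No marker was at 0, but the cardiac marker Nppa had a mean of 2.97, near background. Myh6 averaged 3.82 in LC-HFD, also under 4. The part of cell composition in the differences of the members was not tested.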

How the data were processed

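RNA from the lungs of 6 mice (3 LC-HFD, 3 LC-RD) was hybridized by the authors, with 1 array per mouse, and the groups were taken from the labels HFD+Dox and RD+Dox. The authors deposited 1 table of log2 values, made with GCRMA per the submitters' processing notes and with Partek software per the methods, with settings and versions not given in the sources used here. GCRMA subtracts a background predicted from probe sequence and then normalizes the arrays together, so values under about 4 are uncertain. The log2 values were used as deposited, with 0 missing. Of 45101 probe sets, 64 controls were kept apart, and 34754 symbols were updated by Entrez ID. No sample column was left unused (0).

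Each probe set was tested in R 4.3.3 with limma 3.58.1 (lmFit and eBayes, two-sided, Benjamini-Hochberg adjustment over 45037 probe sets), after tests on simulated data. Figures were drawn with Python 3.11.15, pandas 2.3.3, numpy 2.4.6 and matplotlib 3.10.9. The members and lists were chosen with earlier results of these data known. All 10 members were named with every probe set, other pathway genes as up to 4 of each list with the largest lead difference, and the 3 nearest genes to Id1 and Tmem100. Genes outside this rule were named after their values were seen. Counting depth does not apply to arrays, and 3 arrays per group limit the precision.

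Alternatives were the methods' test, array weights, an intensity trend combined with robust variance, median centering, quantile normalization, a floor of 4 or 6 on the mean, the median over the probe sets of a gene, a replicate block, a 2-fold threshold, adjustment for the 3′ minus 5′ signal and each array left out. A pseudocount did not apply to log2 values.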

Additional observations from a re-analysis of the deposited data

How the results depend on the processing

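The 10 lower member probe sets, 5 lower leads, 9 lower and 4 higher pathway genes and 2 lower endothelial markers became 5, 2, 1, 0 and 0 after adjustment for the 3′ minus 5′ signal and 3, 1, 0, 0 and 0 with a 2-fold threshold. The median lead difference of -0.30 became -0.41 with that adjustment and -0.19 with the median over the probe sets of a gene. Higher pathway genes numbered 7 with array weights and 7 with a minimum mean of 4. The higher member probe sets, 0 before, numbered 1 with a minimum mean of 4 or 6, quantile normalization or a trend with robust variance. Lower endothelial markers numbered 1 with median centering, quantile normalization or the replicate block. The replicate block left 3 lower leads. Deviations of same-numbered mice correlated by -0.04, -0.09 and -0.03, and those of unlike-numbered mice by -0.036 to 0.0803. These values gave no sign of pairing by replicate number but cannot exclude it. Leaving out each array gave 6 to 10 lower and 0 to 1 higher member probe sets, 3 to 6 lower leads, a median of -0.33 to -0.27, 5 to 9 lower and 2 to 6 higher pathway genes, and 0 to 1 lower endothelial markers. The difference of Bmp4 turned to 0.0028 with median centering and 0.0143 with quantile normalization and ranged from -0.0320 to 0.0068, its value without LC-RD 1, when single arrays were left out. With the median over probe sets, Id4 turned to 0.12, Bmpr2 to 0.0474 and Smad7 to -0.17. Causes were not tested, and the adjustment for the 3′ minus 5′ signal cannot tell RNA integrity from diet. Id1 kept its direction in all 16 alternatives, with differences from -1.11 to -1.04. The methods' test, trend with robust variance, replicate block, floors and median over probe sets left it at -1.08 by construction. The median of all tested differences was 0.04 and reached -0.06 with a minimum mean of 6.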
